A study of Citrus sinensis with 48 samples.

Results

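Asparagine synthetase 1 (LOC102628580, asparagine synthetase [glutamine-hydrolyzing] 1) is 1 of the 30136 genes counted in leaves of 2 citrus genotypes. It was picked by its identifier, with its levels in these libraries already known, so its own values are a description and carry no test. Cleopatra mandarin (Citrus reshni), a citrus rootstock, is written Cleo below, and Carrizo citrange (Car) is a rootstock hybrid of trifoliate orange (Poncirus trifoliata) and sweet orange (Citrus sinensis). Leaves of each genotype were sampled in 8 treatments: all 3 stresses at once (WS+HL+HS), each pair of them (HL+HS, WS+HS, WS+HL), heat stress (HS), water stress (WS) and high light (HL) alone, and an unstressed control (CT). Each of the 16 groups held 3 libraries labelled as biological replicates, 48 in all. The sources used here give no stress lengths, light intensities, temperatures or plant age.

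Asparagine synthetase moves the amide group of glutamine onto aspartate and gives asparagine and glutamate. Asparagine carries much nitrogen per carbon, and plants use it to store nitrogen and to move it through the phloem and xylem. In Arabidopsis the gene called ASN1 is known as dark-inducible: it is raised when sugar or light is short, through the SnRK1 kinase and bZIP transcription factors, while its relative ASN2 follows light and ammonium. Asparaginases break asparagine down again. Glutamine synthetase makes the glutamine, and glutamate synthase uses glutamine to make glutamate.

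Libraries held 40294831 to 58392998 counts, and ribosomal RNA genes took 0.457% to 5.39% of them. Levels of a gene are normalised CPM (counts scaled to library size), and levels of different genes are set side by side only in TPM, which also allows for transcript length. A difference is given in log2 CPM with a standard error (SE). Reads of both genotypes were counted on gene models of sweet orange, so for a level that differs between genotypes the amount of RNA and the share of reads that reach the model cannot be told apart. In whole leaves, fewer cells of a type and less RNA per cell cannot be told apart either. Of the libraries, 11 carry a mark in their column names whose meaning is not given, among them all 3 of Car under HS and 2 of the 3 of Car under CT.

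Asparagine synthetase 1 covered a range of 9.73 in log2 CPM over the 16 group means, and its lowest and highest groups were unstressed Car and Cleo under the triple stress. In Cleo under WS+HL+HS the libraries held 1144, 1117 and 1173 CPM. In Car under CT they held 1.48, 0.951 and 1.59 CPM, which are 80, 48 and 92 counts. Ranked by mean TPM among 24543 protein-coding genes, the gene stood at place 110 in the first of these groups and at place 16718 in the other.

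**Figure D1:**
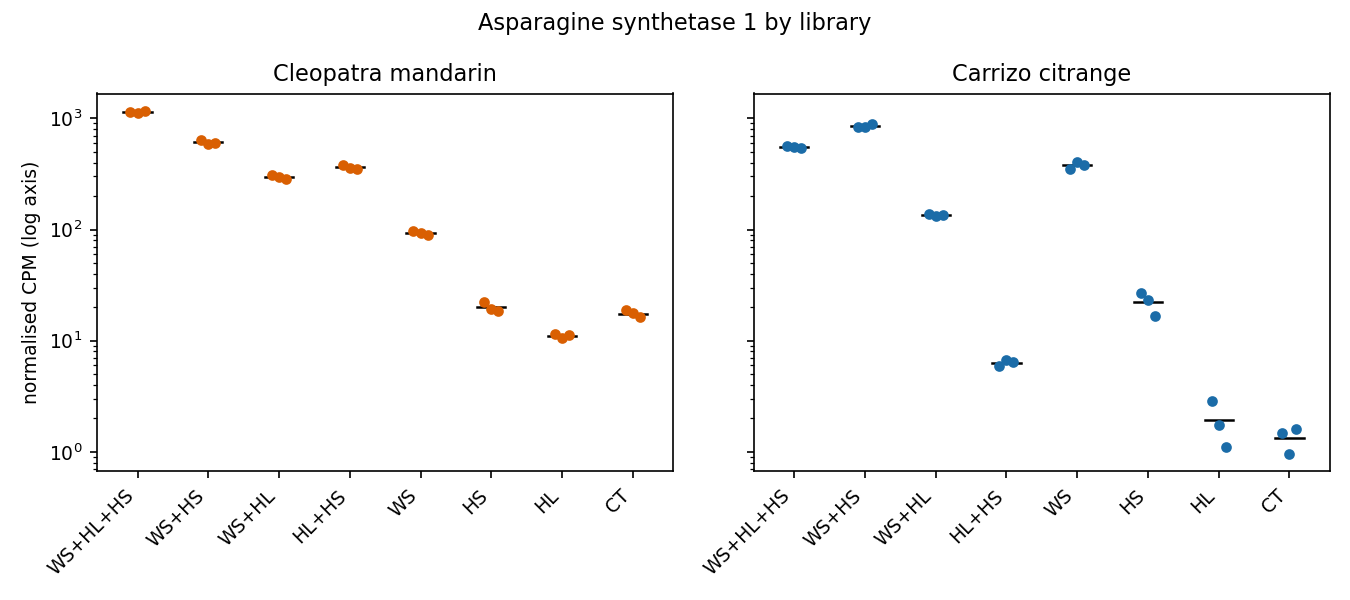
Normalised CPM of asparagine synthetase 1 on a log axis in Cleopatra mandarin (left) and Carrizo citrange (right). Points are the 3 libraries of a group and bars are group means. Every group with water stress lies above the CT libraries of its genotype, and HL+HS stands at 363 CPM in Cleo and 6.35 CPM in Car.

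Water stress gave high levels in both genotypes, from unequal starting points. Under WS the Cleo libraries held 98.0, 93.3 and 88.9 CPM, against 18.8, 17.6 and 16.2 CPM under CT. Under WS the Car libraries held 349, 404 and 384 CPM, against the 0.951 to 1.59 CPM of CT. None of the stressed libraries overlapped the controls of their genotype. The mean was 5.33-fold higher in Cleo (log2 difference 2.41 ± 0.07, SE, n = 3 each) and 283-fold higher in Car (8.13 ± 0.23). The response of Cleo minus that of Car was -5.72 ± 0.24 in log2.

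High light alone left the gene low. Cleo held 11.5, 10.6 and 11.2 CPM under HL, all below its CT libraries (-0.66 ± 0.07). Car held 2.89, 1.76 and 1.10 CPM under HL, which overlapped its CT libraries (0.43 ± 0.45). The highest of these Car values came from replicate 1, the single marked library of that group.

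Under heat alone the levels of the genotypes did not differ beyond their spread. Their responses did, with Cleo minus Car at -3.83 ± 0.31 in log2 against CT. Cleo held 22.3, 19.1 and 18.6 CPM under HS, which overlapped its CT libraries (0.19 ± 0.10). Car held 26.6, 23.2 and 16.8 CPM under HS, all above its CT libraries, with a mean 16.6-fold higher (4.02 ± 0.30). The Car and Cleo libraries under HS overlapped, with a log2 difference of -0.13 ± 0.21 for Cleo over Car. All 3 Car libraries under HS are marked, so unmarked libraries give no value for it.

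High light added to heat gave the largest ratio between the levels of the genotypes. Under HL+HS Cleo held 381, 356 and 352 CPM, 20.7-fold its CT mean (4.37 ± 0.07). Car held 5.86, 6.76 and 6.43 CPM under HL+HS, 4.74-fold its CT mean (2.24 ± 0.23). Between the genotypes this is a 57.1-fold difference in level, the largest among the 8 treatments. Measured from CT, the response of Cleo minus that of Car was 2.13 ± 0.24, smaller in size than under WS (-5.72), WS+HS (-4.19 ± 0.24), HS (-3.83 ± 0.31), WS+HL+HS (-2.66 ± 0.23) and WS+HL (-2.57 ± 0.24), and the opposite in sign. Set against heat alone, adding light went with an 18.1-fold higher mean in Cleo (4.18 ± 0.09), while in Car the mean was lower, at 6.35 CPM under HL+HS against 22.2 CPM under HS (-1.78 ± 0.20). The libraries of these pairs did not overlap in either genotype.

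Adding light to water stress also went in opposite directions. Under WS+HL Cleo held 311, 298 and 285 CPM, 3.19-fold its mean under WS (1.67 ± 0.05). Car held 139, 133 and 135 CPM under WS+HL, 0.359 of its mean under WS (-1.48 ± 0.06). Heat added to water stress was alike in direction: Cleo held 638, 587 and 605 CPM under WS+HS, 6.53-fold its mean under WS (2.71 ± 0.05), and Car held 840, 845 and 883 CPM, 2.26-fold (1.18 ± 0.07). These libraries did not overlap those of WS alone.

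Under WS+HL+HS Cleo reached its highest level, with a mean of 1145 ± 27.8 CPM (SD, n = 3), 1.88-fold that of WS+HS (0.91 ± 0.04). Car held 563, 552 and 544 CPM, below its WS+HS libraries (-0.63 ± 0.03), so the highest group of Car was WS+HS with 856 ± 23.7 CPM (SD, n = 3). All differences from CT within a genotype share its 3 CT libraries.

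On the log2 scale the combinations lay on opposite sides of the sum of their parts in the 2 genotypes. The side depends on the scale: in CPM the Car mean under WS+HS (856) lay above those of WS (379) and HS (22.2) together. For Cleo under HL+HS the log2 difference from CT was 4.37, against a sum of -0.47 for HL and HS alone, a departure of 4.84 ± 0.11. For Car under HL+HS it was 2.24, against a sum of 4.45, a departure of -2.21 ± 0.50. For WS+HL the departures were 2.33 ± 0.09 in Cleo and -1.91 ± 0.46 in Car. For WS+HS they were 2.52 ± 0.11 in Cleo and -2.84 ± 0.30 in Car. The triple stress stood at 6.03 in Cleo, against a sum of 1.94 for the single stresses, and at 8.68 in Car, against a sum of 12.59. The factorial term of the triple stress, which also allows for the departures of the pairs, had the opposite signs, -5.60 ± 0.13 in Cleo and 3.06 ± 0.50 in Car. All Car sums start from the CT mean of 1.34 ± 0.340 CPM (SD, n = 3), which rests on few counts.

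**Figure D2:**
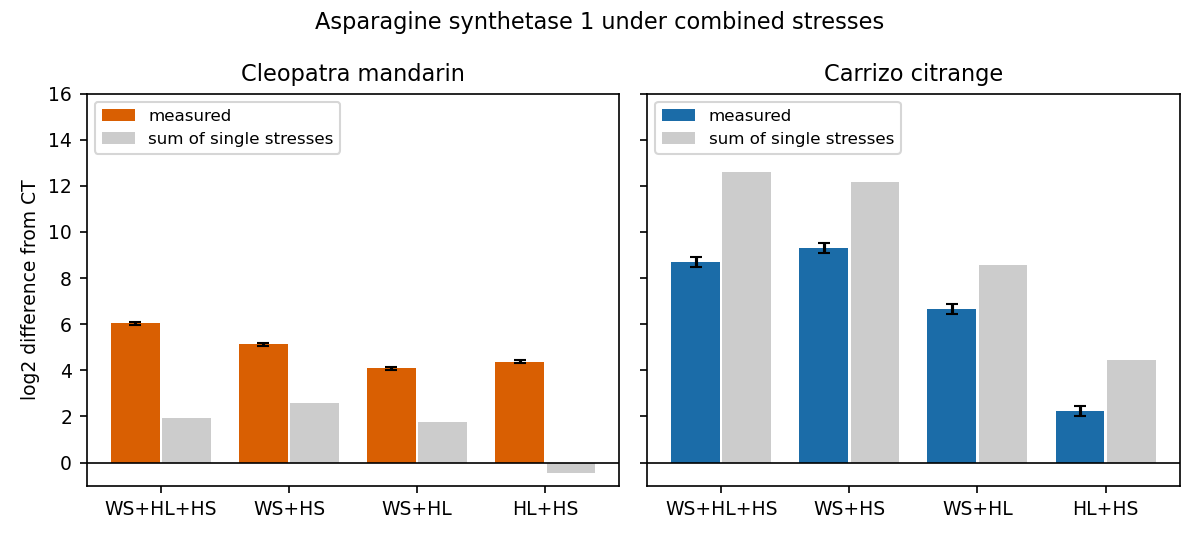
Log2 difference of asparagine synthetase 1 from CT under each combination (coloured bars, error bars are the SE) beside the sum of the differences under the single stresses (grey bars), in Cleopatra mandarin (left) and Carrizo citrange (right). The measured bar is higher than the sum in all 4 combinations of Cleo and lower in all 4 of Car.

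Without stress the gene was 13.1-fold higher in Cleo than in Car (17.5 ± 1.28 against 1.34 ± 0.340 CPM, SD, n = 3 each). It was also higher in Cleo under HL (11.1 against 1.92 CPM), WS+HL (298 against 136 CPM), HL+HS and WS+HL+HS (1145 against 553 CPM). It was lower in Cleo under WS (93.4 against 379 CPM) and WS+HS (610 against 856 CPM). Under these 7 treatments, CT included, no Cleo library overlapped a Car library. Ordered from the highest mean down, the groups were Cleo WS+HL+HS, Car WS+HS, Cleo WS+HS, Car WS+HL+HS, Car WS, Cleo HL+HS, Cleo WS+HL, Car WS+HL, Cleo WS, Car HS, Cleo HS, Cleo CT, Cleo HL, Car HL+HS, Car HL and Car CT. Neighbours that did not differ beyond their spread were Car WS and Cleo HL+HS, Car HS and Cleo HS, Cleo HS and Cleo CT, and Car HL and Car CT.

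Summed levels of leaf and vascular markers also differed between treatments. The summed level of 17 leaf genes (rubisco small subunits and chlorophyll a-b binding proteins, with LOC102623191 at 0 in all groups but Cleo WS+HL+HS) was 5188 to 5416 CPM in Cleo under WS and 33291 to 43844 CPM under CT, and 7352 to 8150 CPM in Car under WS and 23373 to 31885 CPM under CT. In Cleo under HL+HS, where asparagine synthetase 1 was high, the sum was 22268 to 28030 CPM. In Car under HL+HS, where it was low, the sum was 39495 to 42677 CPM. The leaf sum and asparagine synthetase 1 were not opposite in every group. In Car under HS the sum was 44736 to 50488 CPM, above CT, while the mean of asparagine synthetase 1 was 16.6-fold that of CT. The sum of 30 vascular genes was 297 to 353 CPM in Cleo under WS+HL+HS and 548 to 687 CPM under CT, and 147 to 151 CPM in Car under WS+HL+HS and 527 to 577 CPM under CT. Of these genes 6 were at 0 in Cleo under WS+HL+HS and 4 under CT, and 4 in Car under WS+HL+HS and none under CT. The vascular sum did not move with asparagine synthetase 1 in every group: in Cleo it was 584 to 597 CPM under WS and 629 to 662 CPM under WS+HL, within the range under CT. Their part in the level of asparagine synthetase 1 was not tested.

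The second asparagine synthetase gene, asparagine synthetase 2 (LOC102618937), makes the same product and moved far less. Its mean TPM lay between 14.4 and 39.6 in Cleo groups and between 22.9 and 33.6 in Car groups. Asparagine synthetase 1 made up 34.5% ± 2.00 of the TPM of both genes in Cleo under CT and 3.40% ± 0.661 in Car under CT (SD, n = 3 each). Its share was 96.3% in Cleo and 94.4% in Car under WS+HL+HS, and 92.2% in Cleo and 11.9% in Car under HL+HS.

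**Figure D3:**
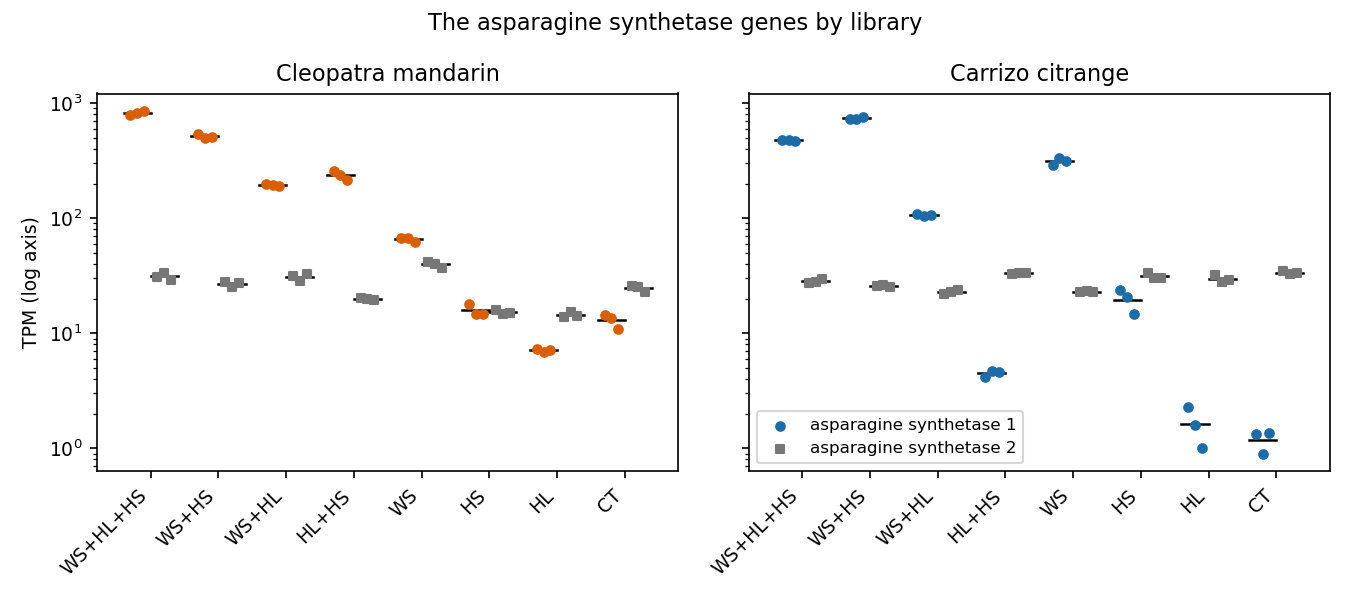
TPM of asparagine synthetase 1 (coloured circles) and asparagine synthetase 2 (grey squares) on a log axis, by library, with group means as bars. Asparagine synthetase 1 lies below asparagine synthetase 2 in CT and HL of both genotypes and in HS and HL+HS of Car, and far above it in every group that combines water stress with heat.

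The pathway genes were tested with edgeR's quasi-likelihood test on counts, over 23721 genes, and passed at an adjusted p below 0.05. Asparagine synthetase 2 moved in opposite directions under WS: Cleo held 68.9, 64.3 and 60.9 CPM under WS, against 38.3, 36.6 and 39.1 CPM under CT (log2 fold change 0.77 ± 0.07, SE, adjusted p = 1.18e-12). Car held 31.6, 31.9 and 31.7 CPM under WS, against 44.5, 39.1 and 44.3 CPM under CT (-0.43 ± 0.07, adjusted p = 1.43e-06). The difference of the responses, Cleo minus Car, was 1.19 ± 0.10 (adjusted p = 6.9e-13), opposite in sign to that of asparagine synthetase 1. Under HL+HS the gene stood at -0.13 ± 0.07 in Cleo (adjusted p = 0.11) and rose in Car (0.33 ± 0.07, adjusted p = 9.22e-05). A gene described as asparagine synthetase domain-containing protein 1 (LOC102614567) rose in both genotypes under HS, by 1.00 ± 0.08 in Cleo and 1.02 ± 0.09 in Car (adjusted p = 3.61e-13 and 2.4e-13), where asparagine synthetase 1 stood clear of its CT libraries in Car alone.

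Of the 4 genes for asparaginases, which release ammonium from asparagine, probable isoaspartyl peptidase/L-asparaginase 2 (LOC102621554) held the largest changes. Under WS Cleo held 192, 195 and 188 CPM, against 469, 457 and 558 CPM under CT (-1.37 ± 0.10, adjusted p = 2.34e-15). Car held 30.4, 29.2 and 29.5 CPM under WS, against 79.1, 89.5 and 100 CPM under CT (-1.59 ± 0.10, adjusted p = 7.6e-17). It fell further under WS+HS, by 4.09 ± 0.11 in Cleo and 2.30 ± 0.11 in Car on the log2 scale (adjusted p = 5.02e-29 and 1.59e-21). The other asparaginase genes changed less under WS. LOC102614447 stood at -0.49 ± 0.10 in Cleo and -0.17 ± 0.10 in Car (adjusted p = 4.99e-05 and 0.125). LOC102626326 stood at -0.33 ± 0.11 and -0.12 ± 0.11 (0.00804 and 0.355), and LOC102620322 at -0.33 ± 0.09 and 0.08 ± 0.09 (0.00185 and 0.487).

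The responses of the asparaginase gene LOC102621554 differed between the genotypes under HS and HL+HS. Under HL+HS Cleo held 55.4, 55.5 and 62.9 CPM, far below CT (-3.09 ± 0.11, adjusted p = 8.78e-26). Car held 88.1, 95.7 and 92.6 CPM under HL+HS, which overlapped its CT libraries (0.04 ± 0.10, adjusted p = 0.77). The difference of the responses was -3.13 ± 0.15 under HL+HS and -2.51 ± 0.14 under HS (adjusted p = 1.13e-20 and 1.53e-17). Without stress it was higher in Cleo (2.46 ± 0.11, adjusted p = 1.57e-22). Under HL+HS asparagine synthetase 1 stood above every CT library in both genotypes, while this asparaginase stood below them in Cleo and overlapped them in Car. Not all asparaginase genes shared this contrast under HL+HS. LOC102614447 fell alike, by 0.84 ± 0.10 in Cleo and in Car on the log2 scale (adjusted p = 1.61e-09 and 1.82e-09). LOC102620322 rose in both (0.38 ± 0.09 and 0.47 ± 0.09, adjusted p = 3.75e-04 and 3.03e-05). LOC102626326 stood at -0.81 ± 0.11 in Cleo and 0.24 ± 0.11 in Car (2.81e-08 and 0.0494).

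The chloroplast glutamine synthetase (leaf isozyme, LOC102610338), which fixes ammonium released in the leaf, fell under WS in both genotypes. Under WS Cleo held 264, 278 and 303 CPM, against 714, 702 and 807 CPM under CT (-1.40 ± 0.11, adjusted p = 3.53e-14). Car held 289, 330 and 304 CPM under WS, against 732, 679 and 885 CPM under CT (-1.31 ± 0.11, adjusted p = 2.48e-13). Under HL+HS Cleo held 263, 283 and 246 CPM (-1.49 ± 0.11, adjusted p = 6.85e-15) and Car 603, 644 and 671 CPM. The Car fall under HL+HS was small (-0.26 ± 0.11, adjusted p = 0.0417) and did not pass without CT replicate 3 (adjusted p = 0.316), HL+HS replicate 1 (0.136) or HL+HS replicate 2 (0.0733), with edgeR's test. The response of Cleo minus that of Car was -1.23 ± 0.16 (adjusted p = 1.82e-08). Across the 16 group means its log2 level had a Pearson r of -0.897 with that of asparagine synthetase 1, a description over groups that share genotype and leaf tissue. A cytosolic form described as nodule isozyme (LOC102626318) rose under WS, by 1.50 ± 0.07 in Cleo and 0.74 ± 0.07 in Car (adjusted p = 6.07e-21 and 1.38e-11), with a difference of 0.76 ± 0.10 (adjusted p = 1.07e-07). Under WS+HS LOC102626318 fell in both (-1.15 ± 0.07 in Cleo and -0.63 ± 0.07 in Car, adjusted p = 4.65e-17 and 9.96e-10). Another gene described as nodule isozyme (LOC102611307) rose under WS in Cleo (0.73 ± 0.09, adjusted p = 8.69e-10) and fell in Car (-0.37 ± 0.09, adjusted p = 2.90e-04).

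The glutamate synthases, which turn glutamine and 2-oxoglutarate into glutamate, parted the genotypes under WS. The NADH-dependent gene (LOC102620225) held 276, 304 and 279 CPM in Cleo under WS, against 381, 395 and 343 CPM under CT (-0.38 ± 0.06, adjusted p = 1.38e-06). Car held 662, 624 and 597 CPM under WS, against 221, 217 and 197 CPM under CT (1.57 ± 0.07, adjusted p = 2.45e-23). The difference of the responses was -1.95 ± 0.09 (adjusted p = 1.49e-20), the same sign as that of asparagine synthetase 1. The ferredoxin-dependent gene (LOC102609089), the main form in leaf chloroplasts, stood at 0.21 ± 0.11 in Cleo (adjusted p = 0.0729) and fell in Car (-0.91 ± 0.11, adjusted p = 7.84e-10). Its difference of the responses was 1.13 ± 0.15 (adjusted p = 6.61e-08).

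Glutamate dehydrogenase 2 (LOC102609585), of a mitochondrial enzyme that can release ammonium from glutamate, rose steeply in Cleo where light and heat met. Under HL+HS Cleo held 115, 110 and 125 CPM, against 5.31, 4.97 and 6.14 CPM under CT (4.41 ± 0.13, adjusted p = 1.15e-28). Under WS+HL+HS Cleo held 251, 236 and 221 CPM (5.43 ± 0.13, adjusted p = 2.55e-31). Car held 1.54, 1.88 and 1.85 CPM under HL+HS and 2.79, 2.57 and 2.21 CPM under WS+HL+HS, against 2.79, 1.90 and 2.14 CPM under CT. The Car values under the triple stress overlapped CT (0.15 ± 0.15, adjusted p = 0.364). The Car value under HL+HS (-0.38 ± 0.16, adjusted p = 0.0401) did not pass without CT replicate 1 (adjusted p = 0.322), HL+HS replicate 1 (0.166) or HL+HS replicate 3 (0.0517), with edgeR's test. The differences of the responses were 4.79 ± 0.20 under HL+HS and 5.28 ± 0.19 under WS+HL+HS (adjusted p = 3.6e-22 and 3.69e-24). LOC102609585 also rose without heat, under WS by 1.49 ± 0.12 in Cleo and 1.97 ± 0.13 in Car (adjusted p = 4.10e-14 and 2.78e-16). Another gene described as glutamate dehydrogenase 2 (LOC102626102) fell in Cleo under HL+HS (-0.93 ± 0.11, adjusted p = 9.33e-10). It stood at -0.01 ± 0.11 in Cleo under WS+HL+HS (adjusted p = 0.945). Below, glutamate dehydrogenase 2 means LOC102609585.

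A cytoplasmic aspartate aminotransferase gene (LOC102621670), of the enzyme that makes the aspartate used by asparagine synthetase, rose under the triple stress in both genotypes. Cleo held 242, 237 and 241 CPM under WS+HL+HS, against 62.1, 64.6 and 61.0 CPM under CT (1.94 ± 0.06, adjusted p = 1.95e-27). Car held 51.2, 50.2 and 53.4 CPM, against 14.6, 15.5 and 15.9 CPM under CT (1.75 ± 0.06, adjusted p = 3.51e-25). Other genes of this enzyme went either way under WS+HL+HS. The cytoplasmic-like gene LOC102620904 had a lower mean, 50.7 against 94.5 CPM under CT in Cleo and 43.8 against 92.9 CPM in Car. Under CT its mean TPM was above that of LOC102621670, 89.3 against 45.5 in Cleo and 108 against 13.7 in Car. The mitochondrial-like gene LOC102625863 had a higher mean, 59.3 against 36.6 CPM in Cleo and 49.1 against 32.9 CPM in Car. The chloroplastic gene LOC102617301 had a lower mean in Cleo (195 against 341 CPM) and a higher mean in Car (210 against 187 CPM). Under CT its mean TPM, 273 in Cleo and 183 in Car, was above those of LOC102621670 and LOC102620904.

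Nitrate reductase (LOC102610866), which starts the assimilation of nitrate, fell under the combinations with heat. Under WS+HS Cleo held 25.9, 24.7 and 25.4 CPM, against 292, 310 and 282 CPM under CT (-3.54 ± 0.09, adjusted p = 2.3e-30). Car held 18.0, 17.8 and 16.4 CPM under WS+HS, against 214, 194 and 239 CPM under CT (-3.63 ± 0.09, adjusted p = 1.88e-30). It also fell under HS alone (-0.44 ± 0.08 in Cleo and -2.20 ± 0.08 in Car, adjusted p = 1.38e-05 and 8.26e-24). Under HL alone it fell as well (-1.25 ± 0.08 in Cleo and -0.43 ± 0.08 in Car, adjusted p = 3.81e-16 and 1.20e-04). Under WS+HL, the combination without heat, it fell in Car (-1.23 ± 0.08, adjusted p = 1.42e-16) and stood at 0.12 ± 0.08 in Cleo (adjusted p = 0.186). Under WS alone, where asparagine synthetase 1 was high in both, it rose in Cleo (0.58 ± 0.08, adjusted p = 3.44e-08) and its Car libraries overlapped CT (-0.06 ± 0.08, adjusted p = 0.565). Nitrite reductase (LOC102616714), the next enzyme, fell under HL+HS by 1.64 ± 0.09 in Cleo on the log2 scale (adjusted p = 7.96e-19). In Car, where the libraries under HL+HS overlapped CT, its value was -0.21 ± 0.09 (adjusted p = 0.0468) and did not pass without CT replicate 3 (adjusted p = 0.403), HL+HS replicate 1 (0.295) or HL+HS replicate 3 (0.0716), with edgeR's test. The response of Cleo minus that of Car was -1.43 ± 0.13 (adjusted p = 3.91e-12).

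**Figure D4:**
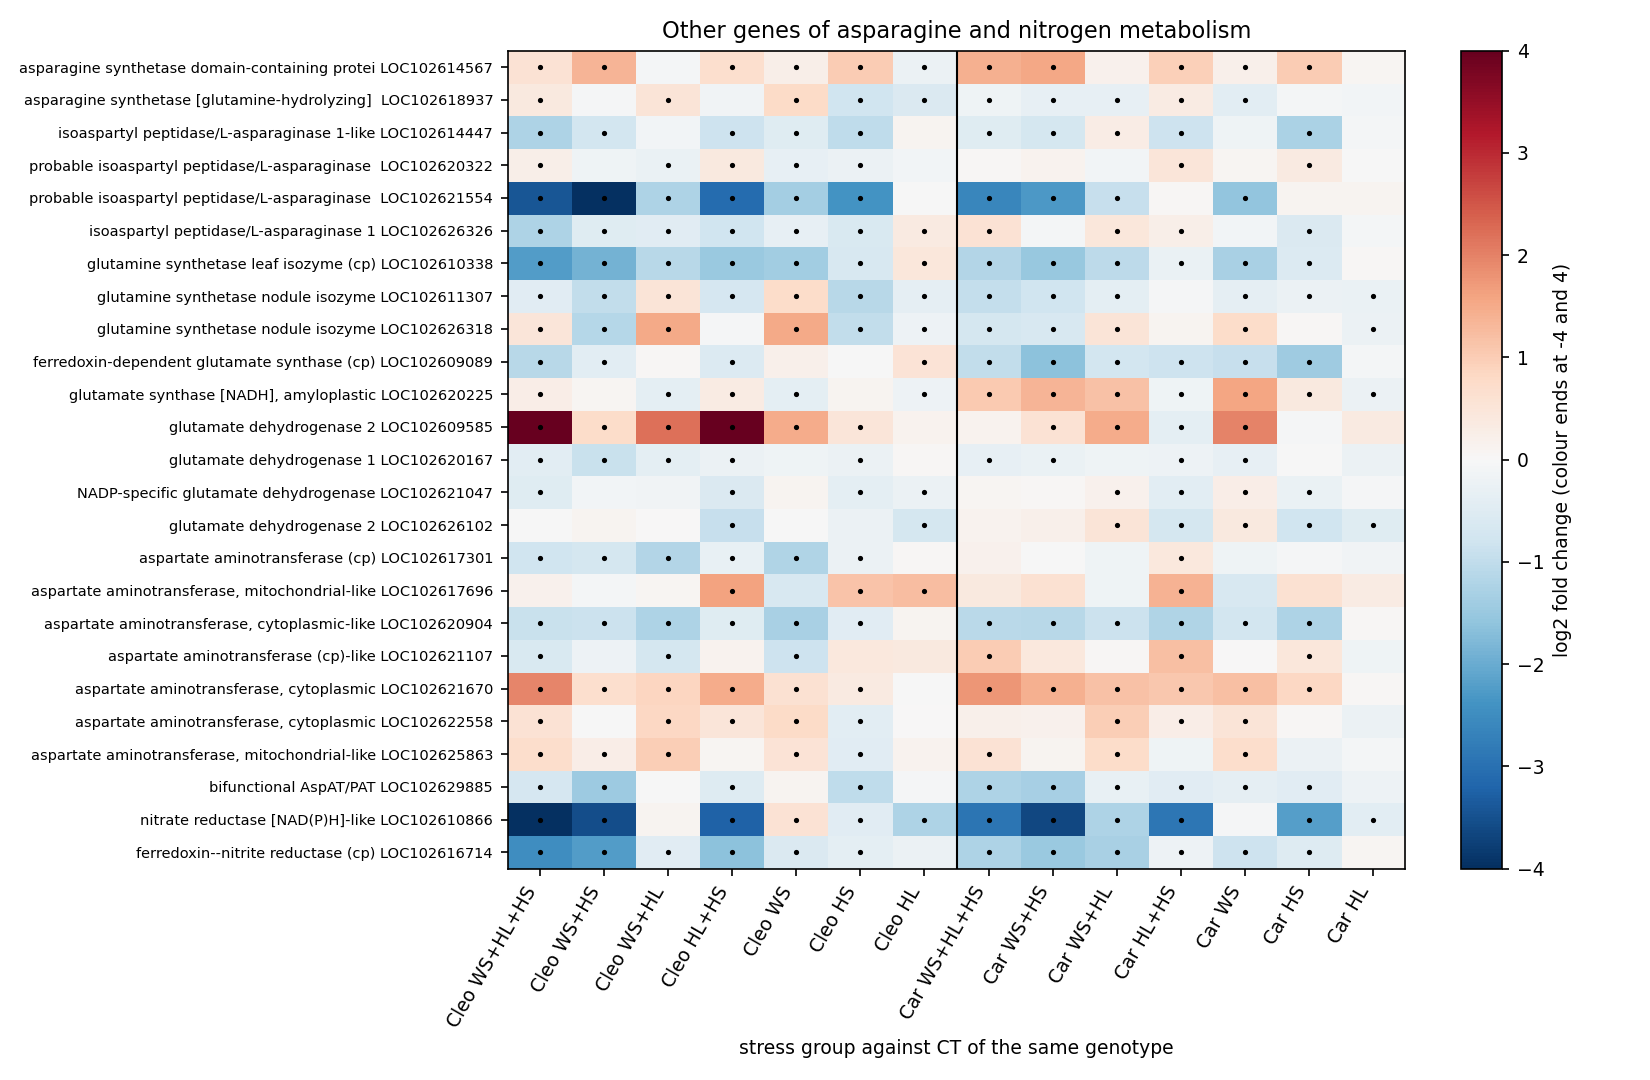
Log2 fold change against CT (colour, ending at -4 and 4) for the other genes of asparagine, glutamine, glutamate and nitrate metabolism, with Cleopatra groups left of the line and Carrizo groups right of it. A dot marks an adjusted p below 0.05. Asparaginase LOC102621554 is blue in both genotypes in all groups with water stress, and in Cleo also under HS and HL+HS, and glutamate dehydrogenase 2 (LOC102609585) is red in Cleo under HL+HS and WS+HL+HS.

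Asparagine is one of several amino acids whose breakdown and transport genes were counted beside it. Alpha-aminoadipic semialdehyde synthase (LOC102608315), the first enzyme of lysine breakdown, held 299, 305 and 296 CPM in Cleo under WS, against 6.52, 5.65 and 6.32 CPM under CT (5.60 ± 0.09, adjusted p = 3.73e-37). Car held 238, 246 and 236 CPM under WS, against 9.39, 10.2 and 8.65 CPM under CT (4.67 ± 0.08, adjusted p = 6.75e-35). Under HL+HS it rose in Cleo (57.4, 49.3 and 53.1 CPM, 3.11 ± 0.08, adjusted p = 6.21e-30), while Car libraries held 9.59, 10.3 and 10.4 CPM and overlapped CT (0.10 ± 0.08, adjusted p = 0.291). The difference of the responses was 3.01 ± 0.12 (adjusted p = 2.25e-23).

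Branched-chain-amino-acid aminotransferase 2 (LOC102614611), of the transaminase that acts on leucine, isoleucine and valine, rose under WS by 5.55 ± 0.12 in Cleo and 5.38 ± 0.13 in Car (adjusted p = 2e-32 and 1.24e-31). Under HL+HS it held 63.9, 50.0 and 42.7 CPM in Cleo and 1.48, 1.58 and 2.05 CPM in Car, with a difference of the responses of 3.98 ± 0.18 (adjusted p = 6.32e-21). Probable amino acid permease 7 (LOC102628128), of a family that takes amino acids into cells, rose under WS by 6.11 ± 0.06 in Cleo and 3.81 ± 0.06 in Car (adjusted p = 1.65e-43 and 6.25e-38). It rose under HL+HS in Cleo (458, 435 and 403 CPM, against 12.0, 11.6 and 11.3 CPM under CT, 5.21 ± 0.06, adjusted p = 9.11e-42), with a difference of the responses of 2.39 ± 0.07 (adjusted p = 3.27e-26). That difference is smaller than the rise in Cleo, so the permease also stood above CT in Car under HL+HS.

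Among the regulators, the bZIP transcription factor 53-like gene (LOC107178372), of the group that includes known activators of ASN1 in Arabidopsis, was near 0 without stress. Under HL+HS Cleo held 10.9, 9.34 and 11.6 CPM, against 0.0546, 0 and 0.0214 CPM under CT (adjusted p = 2.78e-18). Car held 2.98, 2.87 and 3.63 CPM under WS, against 0 counts in every CT library (adjusted p = 1.14e-15). Fold changes against such counts depend on the prior count and are not given. Under HL+HS Car held 0.232, 0.277 and 0.163 CPM. bZIP transcription factor 11 (LOC102614762), whose Arabidopsis relative responds to sucrose, rose by 1.44 ± 0.07 in Cleo under WS+HL+HS (adjusted p = 1.56e-21) and by 1.53 ± 0.07 in Car under WS+HS (adjusted p = 4.7e-22). Each is the group of its genotype with the most asparagine synthetase 1. Values of LOC102614762 under the other stresses are not given here, so no match of pattern is read from these groups. The stresses named for a rise differ between genotypes for both genes. Across the 16 group means LOC102614762 had a Pearson r of 0.706 with asparagine synthetase 1. Over the SnRK1 kinase and bZIP regulators compared, r ran from -0.701 to 0.799. It was -0.437 for bZIP transcription factor 11-like (LOC102624589) and 0.458 for bZIP transcription factor 53 (LOC102629820).

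**Figure D5:**
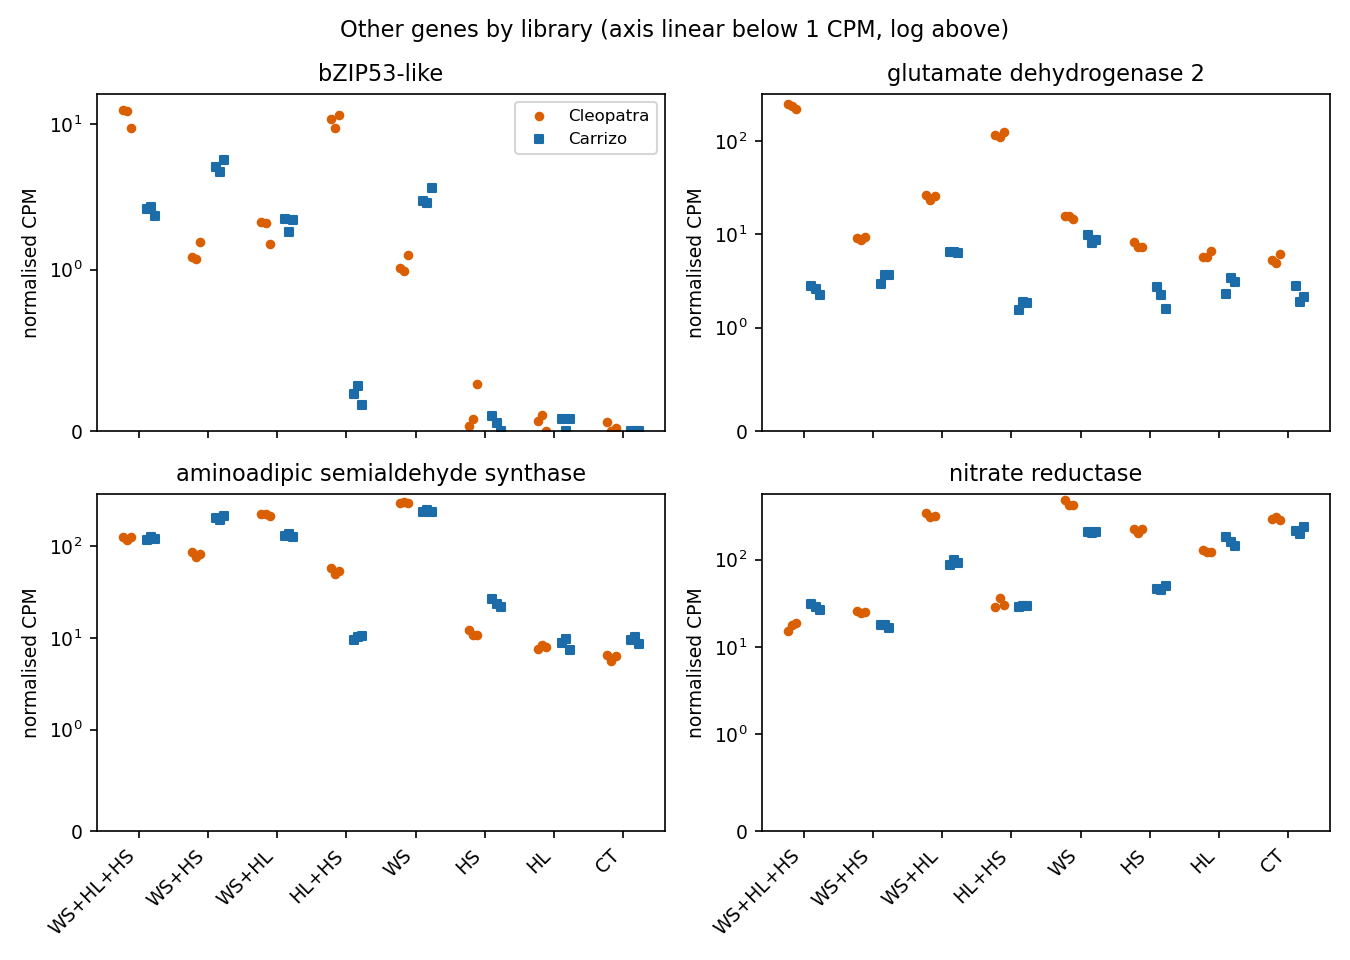
Normalised CPM by library of the bZIP53-like gene, glutamate dehydrogenase 2, alpha-aminoadipic semialdehyde synthase and nitrate reductase, on an axis that is linear below 1 CPM and logarithmic above, with Cleopatra (circles) left of Carrizo (squares). In HL+HS the first 3 genes stand higher in every Cleo library than in every Carrizo library, and nitrate reductase is low in all libraries of both.

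The wider lists on nitrogen and amino acids moved in both directions in every comparison given here. They held 186 members besides asparagine synthetase 1, of which 166 were tested. Under WS in Cleo 65 were higher and 59 lower, 74.7% of them, where 64.7% of all genes were called, 31.2% higher and 33.4% lower. Under WS in Car 59 were higher and 55 lower, 68.7%, where 64.9% of all genes were called, 29.5% higher and 35.3% lower. The median log2 fold change of the lists was 0.02 in Cleo and 0.00 in Car, and 0.00 and -0.08 over all genes.

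Under HL+HS 66 members were higher and 72 lower in Cleo, 83.1%, where 67.1% of all genes were called, 35.5% higher and 31.5% lower. In Car 58 were higher and 66 lower, 74.7%, where 60.9% of all genes were called, 29.5% higher and 31.4% lower. The list medians were -0.08 in Cleo and -0.05 in Car, and 0.02 and 0.00 over all genes. The difference of the responses under HL+HS passed for 97 members, 58.4%, where 50.0% of all genes were called, and under WS for 79 members, 47.6%, where 36.1% were called. Without stress 83 members were higher and 43 lower in Cleo than in Car, 75.9%, where 67.4% of all genes were called, 33.0% higher and 34.4% lower.

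Under the other stresses the list members were called as follows. Under HL 79 were called in Cleo, 47.6%, where 35.7% of all genes were called, and 48 in Car, 28.9%, where 18.5% were. The Car counts under HL were 9 list members and 1118 of all genes with only the compared libraries in the fit, against 48 and 4379. Under HS 114 were called in Cleo, 68.7%, where 54.5% of all genes were, and 111 in Car, 66.9%, where 58.6% were. Under WS+HL 117 were called in Cleo, 70.5%, where 64.9% of all genes were, and 111 in Car, 66.9%, where 62.1% were. Under WS+HS 122 were called in each genotype, 73.5%, where 64.3% of all genes were called in Cleo and 66.9% in Car. Under WS+HL+HS 140 were called in Cleo, 84.3%, where 72.5% of all genes were, and 126 in Car, 75.9%, where 71.2% were. The responses differed between genotypes for 33 members under HL (19.9%, against 15.4% of all genes, with 55 members without Car HL replicate 1 and 15 with only the compared libraries), 86 under HS (51.8%, against 43.7%) and 120 under WS+HL+HS (72.3%, against 56.4%). Since the lists were chosen with results known, nothing particular to them is read from these shares.

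By list, amino acid transport genes (43 of 53 tested) had 24 higher and 11 lower under WS in Cleo (median 0.58), where 31.2% of all genes were higher and 33.4% lower. In Car under WS 22 were higher and 12 lower (median 0.63), where 29.5% of all genes were higher and 35.3% lower. Under HL+HS 18 were higher and 19 lower in Cleo (median 0.04), beside 35.5% and 31.5% of all genes, and 11 higher and 23 lower in Car (median -0.39), beside 29.5% and 31.4%. The next 2 lists are set beside the same shares under WS. The SnRK1 kinase and bZIP regulators (18 of 19 tested) had 10 higher and 4 lower under WS in Cleo, and 9 higher and 2 lower in Car. Of the 33 tested genes of branched-chain amino acid and lysine breakdown, 9 were higher and 14 lower under WS in Cleo, and 12 higher and 12 lower in Car, so the large rises of LOC102608315 and LOC102614611 were not shared by most of that list. The list of glutamate synthases also took in a pair of folylpolyglutamate synthases (LOC102609894 and LOC102625690), and that of amino acids made from aspartate an enzyme described as a UDP-N-acetylmuramoyl ligase (LOC102630045), since lists were built from words in the gene descriptions.

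The genes whose pattern was most like that of asparagine synthetase 1 were sought by the Pearson correlation of mean log2 CPM over the 16 groups, among 12816 genes with a description and a mean log2 CPM of at least 1. The groups share genotype, tissue and treatments, so r is a description. No gene reached 0.95, and 20 reached 0.9. The closest was topless-related protein 4 (LOC102617078), of a family of transcriptional corepressors, with r = 0.947. It held 247, 227 and 228 CPM in Cleo under WS+HL+HS, WS and HL+HS, against 150 CPM under CT, and 242, 244 and 116 CPM in Car, against 113 CPM under CT. Its range over the groups was small beside that of asparagine synthetase 1, which held 1145, 93.4 and 363 CPM in the same stressed groups of Cleo.

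The next were a dnaJ C2-like cochaperone gene (LOC102616306, r = 0.931), a putative clathrin assembly protein (LOC102618386, 0.925), 1,2-dihydroxy-3-keto-5-methylthiopentene dioxygenase 2 of the methionine salvage cycle (LOC102625112, 0.924) and a subunit of the mediator of transcription (LOC102608713, 0.923). After these came the mitochondrial glycerol-3-phosphate dehydrogenase SDP6 (LOC102620008, 0.920), a ubiquitin-specific protease (LOC102622180, 0.914), a spliceosome protein (LOC102617640, 0.913), a CCCH zinc finger protein (LOC102614339, 0.911) and a phosphatidylinositol 4-kinase (LOC102619414, 0.906). The most opposite were the kinesin KIN-7F (LOC102607874, -0.957), STRICTOSIDINE SYNTHASE-LIKE 4-like (LOC102611764, -0.951) and the receptor-like kinase FEI 1 (LOC102628709, -0.939). Of the 10 most alike, 8 were among the 100 most alike by Spearman's rho over the same means, and 9 among the 20 most alike by Pearson's r over the 48 libraries. Among members of the nitrogen and amino acid lists the highest r was that of alpha-aminoadipic semialdehyde synthase (0.846), and asparagine synthetase 2 had an r of 0.051.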

How the data were processed

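RNA of 48 citrus leaf samples was extracted with a Maxwell kit and made into stranded TruSeq mRNA libraries, per the labels' protocols. Per the submitters' processing notes the tools included StringTie 2.1.3b, HISAT2 2.1.0 and FastQC 0.11.7. The name of the deposited table gives the sweet orange assembly Csi_valencia_1.0. How reads with several alignments were treated is not stated in it or in the labels, so reads shared by near-identical genes can be split. The authors deposited 1 table of 30136 genes with raw read counts, FPKM and TPM, per the file headers. The TPM deposited by the authors was used for levels between genes and the FPKM was not used.

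Counts were fitted in R 4.3.3 with edgeR 4.0.16: filterByExpr over 16 groups kept 23721 genes, libraries were scaled by TMM, and the quasi-likelihood fit used the means of 16 groups over all 48 libraries and a trended dispersion (glmQLFit robust, glmQLFTest, 32 residual degrees of freedom). Benjamini-Hochberg adjustment was made per comparison, with a threshold of 0.05. The SE of a fold change was back-calculated from F. Normalised CPM use TMM library sizes, and log2 CPM a prior count of 2. For asparagine synthetase 1 the SE comes from the SDs of log2 CPM in the groups. Python 3.11.15 was used for summaries and plots.

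The gene, the lists and the tests were chosen with earlier results of these data known, so a pattern that those results held is no independent support. Named genes are any member of 7 core lists (asparagine, glutamine and glutamate synthesis and breakdown, aspartate aminotransferases, nitrate and nitrite reduction), up to 3 members with the lowest p per comparison in other lists, and the 10 most alike and 3 most opposite genes. The regulators LOC102624589 and LOC102629820 are named for their r alone. Of the 186 list members 176 matched a RefSeq gene table of another assembly, named DVS_A1.0 and used for that match alone. Nothing beyond the word biological says that replicates came from separate plants, so the spread behind the p-values may be technical. The procedure was tested on simulated data. No protein or promoter sequence was available here, so none is shown and promoter motifs were not searched. Alternatives were DESeq2 1.42.0 and its size factors, no filter, the replicate block, the libraries of a comparison alone, each library left out, the mark as a term, and, added after seeing the data, unmarked libraries alone for the tested genes.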

Additional observations from a re-analysis of the deposited data

Results flagged for a closer look

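The responses of several genes around asparagine synthetase 1 differed between the genotypes by the test of the difference itself, given as Cleo minus Car in log2 (edgeR's quasi-likelihood test). For WS against CT these were asparagine synthetase 2 (LOC102618937) at 1.19, the cytosolic glutamine synthetase LOC102626318 at 0.76, NADH-dependent glutamate synthase (LOC102620225) at -1.95 and ferredoxin-dependent glutamate synthase (LOC102609089) at 1.13. For HS against CT it was the asparaginase LOC102621554 at -2.51. For HL+HS against CT there were the same asparaginase at -3.13, chloroplast glutamine synthetase (LOC102610338) at -1.23, nitrite reductase (LOC102616714) at -1.43, glutamate dehydrogenase 2 (LOC102609585) at 4.79, alpha-aminoadipic semialdehyde synthase (LOC102608315) at 3.01, branched-chain-amino-acid aminotransferase 2 (LOC102614611) at 3.98 and amino acid permease 7 (LOC102628128) at 2.39. For WS+HL+HS against CT it was glutamate dehydrogenase 2 at 5.28. All keep the same sign and side of the threshold in every setting computed, as given below. For asparagine synthetase 1 the differences were not tested.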

How the results depend on the processing

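When a library was left out, with DESeq2's size factors or with a prior count of 0.25, every log2 difference of asparagine synthetase 1 stayed within its spread, and 1 changed sign: Cleo HS over Car HS (-0.13) was 0.01 without Car HS replicate 1. With log2 of TPM + 0.5 the differences from CT that moved by more than 1 SD were 4.14 (HL+HS), 5.27 (WS+HS), 3.87 (WS+HL) and -0.82 (HL) in Cleo, and 8.15 (WS+HL+HS), 1.58 (HL+HS), 8.78 (WS+HS), 5.99 (WS+HL) and 7.55 (WS) in Car. Cleo minus Car responses were then -2.22 (WS+HL+HS), 2.57 (HL+HS), -3.52 (WS+HS), -2.13 (WS+HL), -3.28 (HS) and -5.25 (WS). Cleo over Car was 3.00 (CT), -2.25 (WS), 1.88 (HL), 0.87 (WS+HL), 5.56 (HL+HS) and 0.78 (WS+HL+HS). Some differences between stresses given above also moved, all in Cleo. They were then 1.57 (WS+HL over WS), 2.97 (WS+HS over WS), 3.87 (HL+HS over HS) and 0.67 (WS+HL+HS over WS+HS). With unmarked libraries alone, where Car CT is replicate 2, Car stood at 9.13 (WS+HL+HS), 2.69 (HL+HS), 9.76 (WS+HS), 7.08 (WS+HL) and 8.58 (WS) over CT. Cleo minus Car responses were -3.17, 1.58, -4.69, -3.05 and -6.22 in that order of stresses, and Cleo CT over Car CT was 4.20. The directions held, and the cause of the shifts was not tested.

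For HL against CT, fits of only the libraries compared called 9 list members in Car (48 with all libraries) and 1118 of all genes (4379), and 15 (33) and 1790 (3658) for the genotype difference. These fits hold fewer samples. Leaving out a library gave 22 to 55 list members for that difference, with 55 without Car HL replicate 1. Fits without a library kept the dispersion trend and the genes of the full fit. In the other comparisons the counts stayed within 1.5 times under every setting and library left out.

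Of the named genes' values, nitrate reductase in Car under WS, which did not pass, turned to 0.00 with the mark as a term and with the compared libraries alone, 0.10 in unmarked libraries and 0.02 without CT replicate 3 (-0.13 to 0.02 over libraries left out). The asparaginase LOC102621554 in Car under HL+HS turned to -0.04 without CT replicate 1 (-0.04 to 0.13 over libraries left out), and LOC102608315 in Car under HL+HS to -0.02 in unmarked libraries; neither passed. Ferredoxin-dependent glutamate synthase in Cleo under WS passed with the mark as a term (adjusted p = 0.00898), the compared libraries alone (0.0438), unmarked libraries (0.0285) and without WS replicate 1 (0.0399), and glutamate dehydrogenase 2 in Car under WS+HL+HS passed in unmarked libraries (0.0345). Small Car values under HL+HS did not pass with unmarked libraries for chloroplast glutamine synthetase (0.365), glutamate dehydrogenase 2 (0.626) and nitrite reductase (0.359), in edgeR's test. In unmarked libraries Car CT is 1 library, assumed to vary like the libraries of the other groups, so these Car values rest on that library.

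Equal replicate numbers did not pair the samples: 3 of 42 pairs of libraries with the same number, over 14 comparisons of a stress with CT, had deviations correlated above 0.1, and 19 of 48 libraries matched best a library of their own number. With the replicate block 115 list members were called in Car under WS and 96 for the HL+HS difference, and no list count left 1.5 times that without the block.

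Levels near 1 CPM in Car CT rest on 48 to 92 counts, which limits the precision of every Car fold.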
